A study of Mus musculus with 24 samples.

Results

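The 10 genes described here form the entry switch of the cell cycle: the D cyclins Ccnd1, Ccnd2 and Ccnd3, their kinase partners Cdk4 and Cdk6, the transcription factors Myc and Mycn, and the kinase inhibitors Cdkn1a, Cdkn1b and Cdkn1c. They were chosen by symbol, and each was read from its brightest probe set among those that name that gene alone. All 10 were measured, of 17097 genes read on the arrays of the ependymal region and of 22180 genes read on the arrays of neurospheres. The ependymal arrays held RNA from tissue around the central canal, cut out with a laser, of adult CD1 mice aged 3 months. The 6 sham mice had a laminectomy only, and the 6 injured mice had a laminectomy and needle insertions into the thoracic cord, with tissue taken 3 days later. The neurospheres, floating balls of neural stem and progenitor cells, came from adult spinal cord in 4 cultures, 1 per numbered mouse, and each culture was measured in 3 conditions. They grew with EGF, FGF2 and heparin, or were plated for 3 days on poly-D-lysine and laminin with 2% fetal bovine serum and no growth factors, or were plated in this way and then given EGF, FGF2 and heparin again for 3 days without serum. Adhesion, serum, heparin and growth factors thus changed together and cannot be told apart.

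D cyclins are made when growth factors signal to a cell, and they bind and switch on CDK4 and CDK6. These kinases phosphorylate the retinoblastoma protein, which releases the E2F factors that drive S phase genes. MYC is an immediate target of growth factor signalling and raises many genes of growth and division. p21, p27 and p57, encoded by Cdkn1a, Cdkn1b and Cdkn1c, bind and restrain cyclin-CDK complexes, and p27 is classically high in resting cells. In the adult cord most ependymal cells rest, and they divide after injury.

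The promoters of the kinases are shown because both genes changed in culture and one of them is rich in the E-box, the letters that MYC binds with its partner MAX, and that of Mycn because it held E2F letters. They were chosen with these matches known. RefSeq entries of the build GRCm38.p6 were matched for 6 of the 10 genes, and Ccnd1, Ccnd2, Myc and Cdkn1c had no match. The stretches run over the 250 bases before the annotated start, with CACGTG in capitals in the first and second and the E2F letters TTTCGCGC, TTTGGCGC or TTTCCCGC, read on either strand, in capitals in the third. Cdk4 lies at chr10:127063285-127063534 on the plus strand, Cdk6 at chr5:3343643-3343892 on the plus strand and Mycn at chr12:12941837-12942086 on the minus strand.
Cdk4: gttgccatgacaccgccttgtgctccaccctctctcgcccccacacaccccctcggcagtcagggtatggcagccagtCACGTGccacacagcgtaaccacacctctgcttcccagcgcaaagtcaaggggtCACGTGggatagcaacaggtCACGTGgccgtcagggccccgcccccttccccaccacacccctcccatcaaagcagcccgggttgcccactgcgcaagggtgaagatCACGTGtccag
Cdk6: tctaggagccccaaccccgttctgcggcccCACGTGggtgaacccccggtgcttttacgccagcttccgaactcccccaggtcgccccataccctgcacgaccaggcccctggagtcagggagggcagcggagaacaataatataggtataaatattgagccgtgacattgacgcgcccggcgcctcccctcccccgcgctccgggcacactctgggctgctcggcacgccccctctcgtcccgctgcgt
Mycn: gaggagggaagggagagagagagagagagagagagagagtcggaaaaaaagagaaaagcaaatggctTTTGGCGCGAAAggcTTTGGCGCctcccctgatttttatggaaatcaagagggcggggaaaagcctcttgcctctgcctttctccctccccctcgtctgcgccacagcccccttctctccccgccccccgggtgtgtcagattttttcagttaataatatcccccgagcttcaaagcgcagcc
The Cdk4 promoter held 4 E-boxes, at 172, 118, 98 and 11 bases before the start, and the Cdk6 promoter held 1, at 220 bases. Of all 32851 promoter entries, 6.02% had an E-box and 7 (0.0213%) had at least 4. The Mycn promoter held 3 matches to E2F letters, at 183, 179 and 168 bases before the start, the first and second of which overlap, against 1.53% of all entries with any. The AP-1 letters TGACTCA or TGAGTCA (4.46% of all entries), the CRE TGACGTCA (1.55%) and the STAT letters TTCNNNGAA (7.02%), searched on both strands, were found in no promoter of the 6 genes. Ccnd3, Cdkn1a and Cdkn1b held none of the 5 motifs. A match marks letters only and not binding.

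The first comparison asked how the injury changed these genes around the central canal. Ccnd1 and Myc rose and Ccnd2 fell, while Ccnd3, Mycn, Cdk4, Cdk6 and the inhibitors did not pass the test. Thus 2 of the 10 genes were called higher, beside 2.91% of all genes, and 1 was called lower, beside 1.87% of all genes (limma over all probe sets, Benjamini-Hochberg adjusted p under 0.05). The 12 arrays fell into 3 sets by the spread of their signals, each with 2 sham and 2 injured mice (replicates 1 and 2 of both groups in set 1, 3 and 4 in set 2, and 5 and 6 in set 3), and no source used here says what set them apart. With the set of arrays taken as a block, 3 of the 10 were called higher, beside 12% of all genes, and 2 were called lower, beside 13.1% of all genes. Values are log2 signals made by RMA, so that a difference of 1 is a doubling, and errors of means are SD.

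Other cell markers moved between the groups. The mean of the 7 measured ependymal markers was 10.51 to 10.84 in the sham arrays and 9.44 to 10.001 in the injured arrays, all 7 being above the median signal of probe sets. The 8 astrocyte markers averaged 8.08 to 8.84 in sham and 8.90 to 9.55 in injured arrays, and the 10 microglia and macrophage markers 5.74 to 6.33 and 6.17 to 6.99. Members of these lists did not all move alike. In sham and injured arrays the means were 8.68 and 11.44 for Gfap, but 12.12 and 12.07 for Gja1. Those of C1qb were 6.35 and 7.58, but those of P2ry12 were 5.83 and 4.71. The 6 neural stem cell markers averaged 9.44 to 9.70 in sham and 9.99 to 10.32 in injured arrays. Skeletal muscle markers (8 genes) ranged from 4.89 to 9.61 in sham and from 4.64 to 8.51 in injured arrays. The part of these shifts in the results was not tested, and in such bulk tissue fewer cells of a type and less RNA per cell cannot be told apart.

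Ccnd1, which encodes cyclin D1, rose in injured mice. Its lowest, median and highest log2 signals were 6.73, 7.18 and 8.09 in the 6 sham mice and 9.26, 9.80 and 10.43 in the 6 injured mice. Every injured mouse was above every sham mouse, with a gap of more than 1 log2 unit. The means were 7.29 ± 0.53 (n = 6) and 9.82 ± 0.40 (n = 6), a difference of 2.53 (SE 0.25, 95% CI 1.99 to 3.07) or 5.79-fold, with an adjusted p of 1.2e-04. Within the 3 sets of arrays the difference was 2.35, 2.56 and 2.70. The other probe sets of Ccnd1 rose as well, by 1.68 (adjusted p 0.0067) and 1.80 (adjusted p 0.0010).

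Ccnd2, which encodes cyclin D2, moved the opposite way. Its lowest, median and highest signals were 10.68, 10.94 and 11.04 in sham mice and 9.78, 10.004 and 10.32 in injured mice, so that no injured mouse reached the lowest sham mouse. The mean was 10.89 ± 0.17 (n = 6) in sham and 10.01 ± 0.20 (n = 6) in injured mice. It fell by 0.88 on the log2 scale (SE 0.12, 1.84-fold, adjusted p 0.0012), and within the 3 sets the differences were -0.99, -0.76 and -0.88. All 6 probe sets of Ccnd2 passed the test, with differences from -1.56 to -0.37.

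Ccnd3, which encodes cyclin D3, did not separate the groups, with signals of 7.40 to 8.70 (median 8.02) in sham and 7.48 to 8.59 (median 8.11) in injured mice. The difference was 0.01 (95% CI -0.51 to 0.54, adjusted p 1.0). Its values spread within each group beside the signal of 7 neutrophil genes, such as S100a8 and Ngp. In the 5 arrays where those genes averaged 10.83 to 11.60, Ccnd3 was 8.19 to 8.70, and in the other 7 arrays, where they averaged 4.72 to 8.01, it was 7.40 to 8.11. The arrays of the first kind were sham replicates 3, 4 and 6 and injured replicates 3 and 4, and thus the whole of set 2 and 1 array of set 3, so that the neutrophil signal and the set largely go together. The 3 measured erythroid genes averaged 8.40 to 10.49 in the same 5 arrays. The part of neutrophil RNA in the Ccnd3 signal was not tested, and this split of the arrays was made after their values had been seen.

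**Figure D1:**
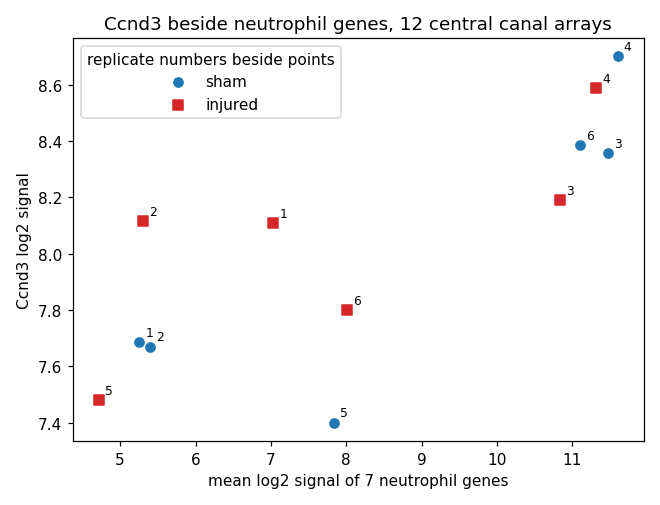
Ccnd3 log2 signal (vertical axis) against the mean log2 signal of 7 neutrophil genes (horizontal axis) in the 12 arrays of the central canal region, sham as circles and injured as squares, with replicate numbers. The 5 arrays with a neutrophil mean above 10 have Ccnd3 signals of 8.19 to 8.70, and the other 7 lie between 7.40 and 8.11.

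Myc rose with the injury. Its lowest, median and highest signals were 4.70, 5.26 and 6.45 in sham mice and 6.84, 7.77 and 8.49 in injured mice, with no overlap. The means were 5.46 ± 0.71 (n = 6) and 7.71 ± 0.60 (n = 6), a difference of 2.26 (SE 0.34, 95% CI 1.51 to 3.00) or 4.77-fold, with an adjusted p of 0.0026. The 3 sets of arrays gave 2.26, 1.76 and 2.74, and no other probe set of Myc was read. Mycn, its relative of the developing nervous system, was 4.62 to 5.83 (median 5.48) in sham and 4.80 to 5.84 (median 5.43) in injured mice, a difference of -0.06 (95% CI -0.56 to 0.45), and neither of its other probe sets was called. Among the sham mice Myc was 5.42, 6.45 and 6.18 in replicates 3, 4 and 6, and 4.70, 5.10 and 4.88 in the others. Those 3 sham arrays had the higher neutrophil and muscle signals. In injured replicates 3 and 4, with high neutrophil signal, Myc was 8.05 and 7.34, within the 6.84 to 8.49 of the others. Cdkn1c split the sham mice likewise, at 4.37 to 4.47 against 4.21 to 4.29. The part of such RNA in these signals was not tested.

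The kinases shifted less, and in opposite directions. Cdk4 was 8.27 to 8.95 (median 8.77) in sham and 8.51 to 9.59 (median 9.28) in injured mice, a difference of 0.44 (SE 0.20) that did not pass (adjusted p 0.41). Within each set of arrays the injured mice were above the sham mice, by 0.69, 0.29 and 0.34, and with the set as a block Cdk4 was called higher (adjusted p 0.0027), as were both its other probe sets (adjusted p 0.0034 and 1.8e-04). Cdk6 was 8.14 to 9.33 (median 8.63) in sham and 7.81 to 8.35 (median 8.04) in injured mice, a difference of -0.58 (SE 0.21, adjusted p 0.22). Within the 3 sets Cdk6 differed by -0.64, -0.27 and -0.84 with no overlap in any, and it was called lower with the set as a block (adjusted p 0.027). Of its other probe sets 1 was called with that block (-0.51, adjusted p 0.038) and 1 was not (-0.10, adjusted p 0.52). With the replicate number as a block, which follows the sets, the adjusted p was 0.015 for Cdk4 and 0.018 for Cdk6. Each set holds only 2 mice a group, and some sets also showed no overlap for Ccnd3, Mycn, Cdkn1a, Cdkn1b and Cdkn1c.

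None of the inhibitors passed the test. Cdkn1a, a target of p53, was 7.89 to 8.46 (median 8.32) in sham and 8.19 to 8.73 (median 8.44) in injured mice, a difference of 0.17 (95% CI -0.09 to 0.44, adjusted p 0.82). Cdkn1b was 8.41 to 8.82 (median 8.50) and 8.04 to 8.81 (median 8.66), a difference of -0.03 (95% CI -0.37 to 0.30). Cdkn1c was 4.21 to 4.47 (median 4.33) and 3.95 to 5.08 (median 4.34), a difference of 0.07 (95% CI -0.27 to 0.41). The groups overlapped for each of the 3 genes, and these intervals leave room for changes of up to about 0.44 on the log2 scale. Cdkn1c lay at the 31.3 percentile of the mean signals of all probe sets on these arrays, where a change is hard to measure.

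**Figure D2:**
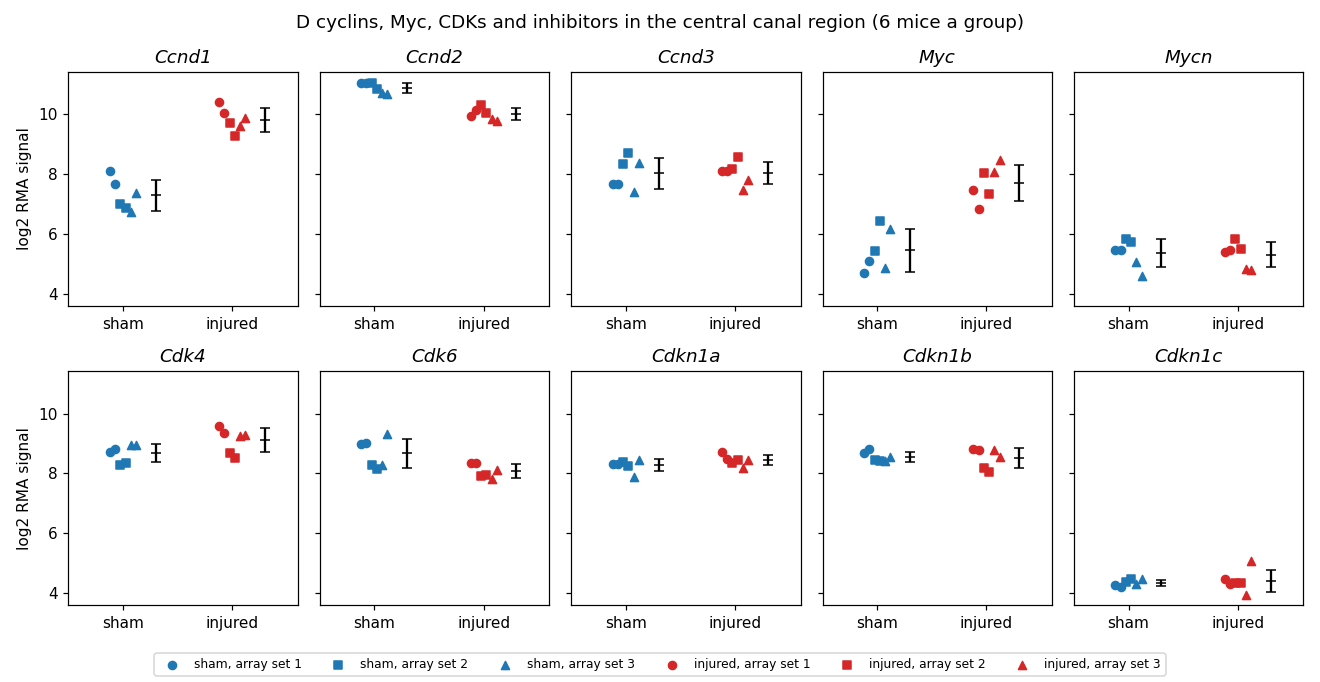
Log2 RMA signal of the 10 genes in the central canal region of 6 sham and 6 injured mice, 1 panel per gene, with 1 point per mouse, marker shapes for the 3 sets of arrays and a black dash with bars for the mean and SD of a group. The sham and injured points do not overlap for Ccnd1, Ccnd2 and Myc and overlap for the other 7 genes. How many of all genes showed no overlap was not counted.

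**Figure D3:**
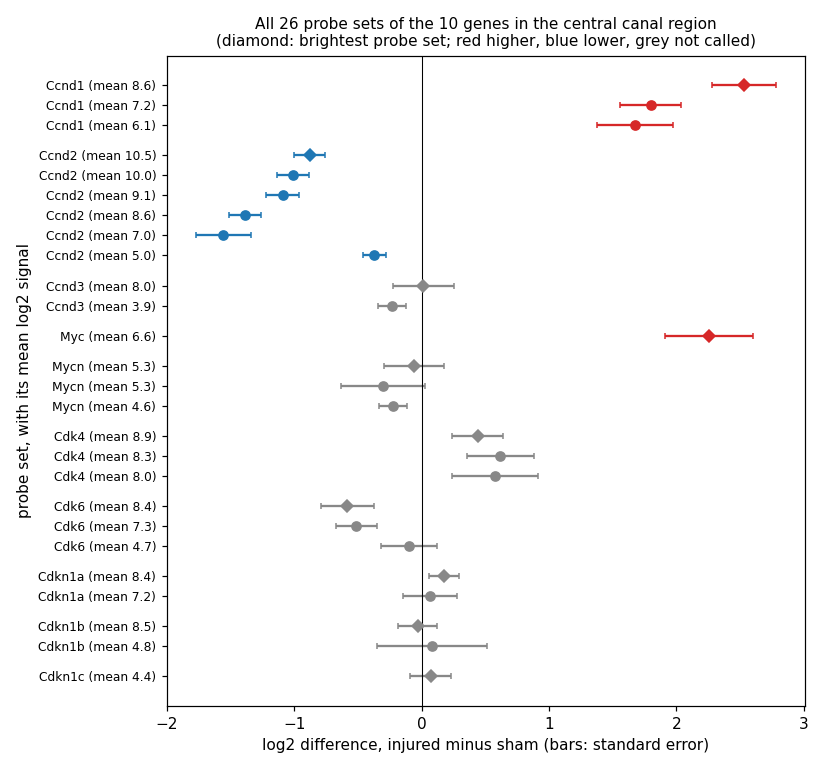
Difference of injured and sham mice on the log2 scale (horizontal axis) for each of the 26 probe sets of the 10 genes, with standard errors, the brightest probe set of a gene as a diamond and its mean signal beside it. All 3 probe sets of Ccnd1 and all 6 of Ccnd2 passed the test, in opposite directions.

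Of the wider pathway after injury, few genes were called. Among 27 measured genes of the G1 to S machinery, 2 rose and none fell: Cks1b, a subunit of CDK complexes that helps destroy p27, by 1.77 (adjusted p 0.022), and Cdkn2c, an inhibitor of CDK4 and CDK6, by 1.15 (adjusted p 0.032). Their median difference was 0.13, beside 0.02 for all genes. Of 20 measured p53 target genes 1, the growth arrest and DNA damage gene Gadd45a, rose with no block (1.703, adjusted p 0.0016), and the median of the list was 0.10. By limma none of the 13 measured genes of the MYC partner network passed (2 higher and 1 lower at an unadjusted p under 0.05), the smallest p being that of the repressor Mnt (0.33, adjusted p 0.13). None of the 17 measured proliferation markers passed by limma (7 higher at an unadjusted p under 0.05), with a median difference of 0.84, and Plk1, a mitotic kinase, was closest at 0.91 (adjusted p 0.22). With the array set as the block, 12% of all genes were called higher and 13.1% lower. That block called 4 of the 27 G1 to S genes higher and 2 lower. Of the 17 proliferation markers it called 2 higher, Cdk1 and Cenpf. It also called 3 of the 20 p53 targets higher (Gadd45a, Eda2r and Plk2) and 2 lower (Mdm2 and Trp53inp1). Of the 13 genes of the MYC partner network 2 were called higher (Mnt and Mxd3) and 2 lower (Mga and Mycbp). Whether any list exceeded the shares of all genes was not tested.

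The second comparison asked how the same genes responded when neurospheres lost their growth factors. Without them Ccnd1, Ccnd2, Myc, Cdk4, Cdk6 and Cdkn1a fell and Cdkn1b rose, while Ccnd3, Mycn and Cdkn1c did not pass. Thus 6 of the 10 were called lower, beside 16.2% of all genes, and 1 was called higher, beside 12.1% of all genes. The third comparison asked whether the return of the factors turned this round. On return 5 of the 10 were called higher, beside 10.1% of all genes, and 1, Cdkn1b, was called lower, beside 6.56% of all genes. Both comparisons use the same arrays without factors, so that opposite signs between them are in part built in. The fourth set returned cultures against those that had grown with the factors, where none of the 10 was called higher by limma (1, Ccnd2, at an unadjusted p under 0.05), beside 7.86% of all genes, and 2, Myc and Cdk4, were called lower, beside 7.43% of all genes. It shares arrays with both other comparisons. Signals of these arrays cannot be set against those of the ependymal arrays, which are of another type and were normalized apart.

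In the neurospheres, marker genes also shifted. The 8 astrocyte markers averaged 6.90 to 7.09 with factors, 8.26 to 8.64 without and 7.32 to 7.55 on return, and those of oligodendrocyte precursors averaged 6.94 to 7.12, 6.06 to 6.31 and 6.72 to 6.92. The 6 neural stem cell markers were all above the median signal, averaging 8.80 to 9.08, 9.21 to 9.60 and 8.85 to 9.20, but their members went different ways: the mean of Nes was 7.96, 6.32 and 7.996 and that of Prom1 was 5.47, 8.75 and 6.13. Those of pericytes and smooth muscle (6 genes) averaged 4.95 to 5.13, 5.53 to 5.88 and 5.55 to 5.72, and the 6 neuron markers 4.26 to 4.37, 4.43 to 4.58 and 4.42 to 5.33. The 10 ependymal markers averaged 4.17 to 4.30, 4.88 to 5.02 and 4.36 to 4.62. Members of the astrocyte, precursor and pericyte lists went different ways as well. With and without factors the means were 4.54 and 8.60 for Gfap, but 10.23 and 9.88 for Slc1a3. Those of Olig1 were 10.66 and 9.07, but those of Pdgfra were 3.96 and 4.83. Those of Acta2 were 6.84 and 10.13, but those of Cspg4 were 6.00 and 4.70. The part of these shifts in the results was not tested.

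On loss and on return Ccnd1 moved most of the 10 genes. Its log2 signals in cultures 1 to 4 were 10.60, 10.47, 10.75 and 10.57 with factors, 7.87, 6.88, 9.09 and 8.41 without, and 11.07, 11.13, 11.29 and 11.20 on return. The 4 cultures were close to each other with factors and on return and spread over more than 2 log2 units without. The mean fell from 10.60 ± 0.12 to 8.06 ± 0.93 (n = 4 each), by 2.53 on the log2 scale (SE 0.34, 5.79-fold, adjusted p 1.3e-04), with differences from -3.58 to -1.66 in the single cultures. On return it rose by 3.11 (SE 0.34, 8.63-fold, adjusted p 6.7e-05) to 11.17 ± 0.09. All 4 returned cultures were above all 4 that had grown with factors, by 0.47 to 0.66 in the single cultures, but the mean difference of 0.58 did not pass in the fit of all 3 conditions (95% CI -0.16 to 1.31, adjusted p 0.43). In a fit of those 2 conditions alone it passed (adjusted p 0.0030).

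Ccnd2 followed with smaller steps. Its signals were 10.82, 10.95, 10.91 and 10.86 with factors, 10.18, 9.97, 10.79 and 10.58 without, and 11.25, 11.34, 11.41 and 11.38 on return. The 3 conditions did not overlap. Loss of the factors gave -0.50 (SE 0.15, 1.42-fold, adjusted p 0.026), and return gave 0.96 (SE 0.15, 1.95-fold, adjusted p 8.0e-04). The call on loss was lost with quantile normalization (-0.39, adjusted p 0.097), in a fit of those 2 conditions (adjusted p 0.068) and without any of 5 single arrays (adjusted p 0.051 to 0.073). Returned cultures were 0.38 to 0.53 above their own start in 4 of 4 cultures, a mean difference of 0.46 with an adjusted p of 0.073, and of 0.049 with the culture as a block. Ccnd3 differed by -0.16 (95% CI -0.46 to 0.13) on loss and by 0.13 (95% CI -0.16 to 0.42) on return, with all 12 signals between 5.87 and 6.50.

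**Figure D4:**
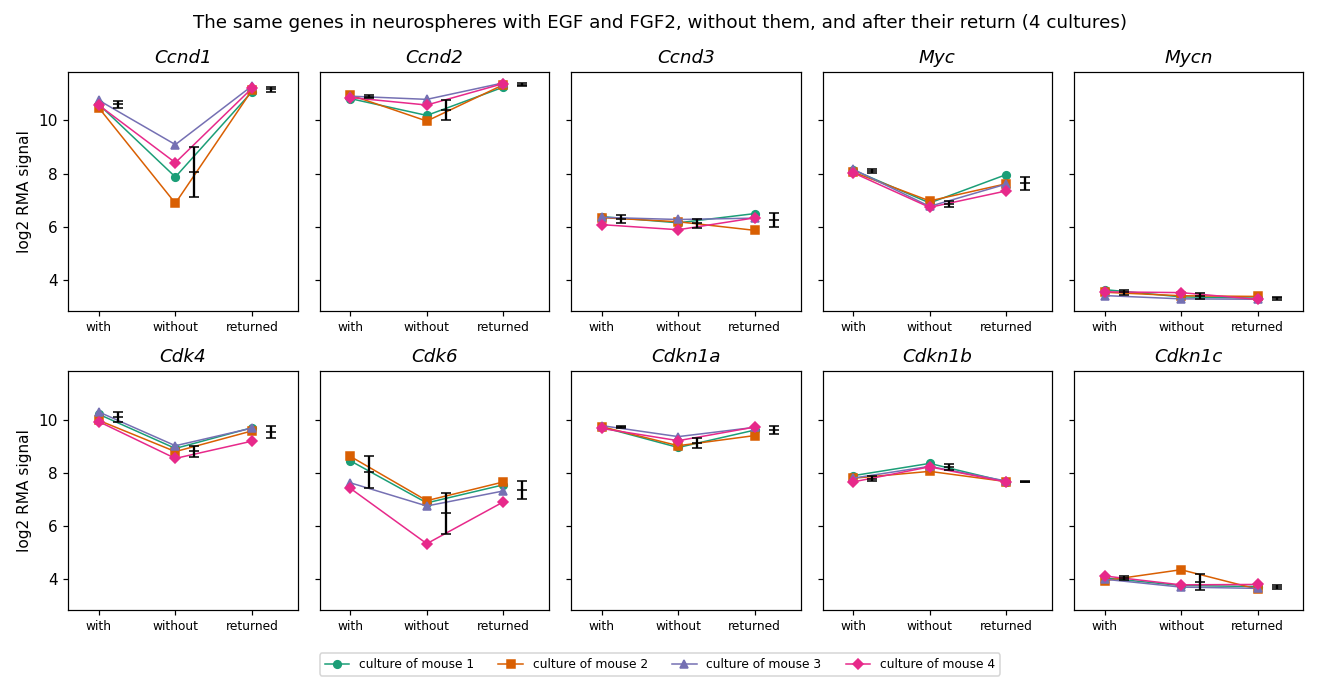
Log2 RMA signal of the 10 genes in 4 neurosphere cultures with EGF and FGF2, without them and after their return, 1 panel per gene, with a line and marker for each culture and a black dash with bars for the mean and SD of a condition. Ccnd1, Ccnd2, Cdk4, Cdk6, Cdkn1a and Myc dip without the factors in all 4 cultures, and Cdkn1b peaks there.

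The transcription factor Myc separated the 3 conditions in every culture. Its signals were 8.14, 8.05, 8.16 and 8.03 with factors, 6.90, 6.97, 6.77 and 6.73 without, and 7.96, 7.62, 7.60 and 7.35 on return. It fell by 1.26 on loss (SE 0.11, 2.39-fold, adjusted p 5.5e-06) and rose by 0.79 on return (SE 0.11, 1.73-fold, adjusted p 6.1e-04). The returned cultures lay between the other conditions with no overlap, and their difference from growth with factors was -0.47 (SE 0.11, adjusted p 0.022), a call that was lost when with-factor culture 1 or 3 or returned culture 3 or 4 was left out (adjusted p 0.061, 0.063, 0.059 and 0.059). Mycn was at the 34.7 percentile of the mean signals of all probe sets, with all 12 values between 3.27 and 3.64. Its differences were -0.14 on loss (adjusted p 0.26) and -0.22 between returned and starting cultures (adjusted p 0.096).

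Both kinases fell without the factors. Cdk4 was 10.20, 9.97, 10.28 and 9.92 with factors, 8.91, 8.80, 9.02 and 8.54 without, and 9.69, 9.57, 9.68 and 9.19 on return. It fell by 1.28 (SE 0.14, 2.42-fold, adjusted p 2.5e-05) and rose by 0.72 on return (SE 0.14, 1.64-fold, adjusted p 0.0042). The returned cultures were still below their start, with a difference of -0.56 (SE 0.14, 1.47-fold, adjusted p 0.022, and 9.0e-04 with the culture as a block), although the call was lost when with-factor culture 1 or 3 or returned culture 4 was left out (adjusted p 0.067, 0.072 and 0.061). Cdk6 was 8.45, 8.62, 7.62 and 7.42 with factors, 6.87, 6.95, 6.75 and 5.34 without, and 7.55, 7.65, 7.32 and 6.91 on return. Culture 4 without factors stood well below the others. Cdk6 fell by 1.55 (SE 0.37, 2.93-fold, adjusted p 0.0082), and on return it was higher in 4 of 4 cultures, by 0.56 to 1.57. This mean difference of 0.88 had an adjusted p of 0.16, and of 0.0094 with the culture as a block. Between returned and starting cultures the difference of -0.67 gave 0.38, and 0.041 with the block.

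The inhibitors p21 and p27 moved in opposite directions. Cdkn1a was 9.72, 9.73, 9.77 and 9.67 with factors, 8.95, 9.02, 9.36 and 9.21 without, and 9.60, 9.40, 9.71 and 9.72 on return. It fell by 0.59 (SE 0.10, 1.51-fold, adjusted p 0.0010) and rose by 0.47 on return (SE 0.10, 1.39-fold, adjusted p 0.0084). Cdkn1b was 7.89, 7.79, 7.80 and 7.66 with factors, 8.35, 8.05, 8.24 and 8.22 without, and 7.66, 7.67, 7.69 and 7.66 on return. All 4 cultures without factors were above the other 8 arrays. Cdkn1b rose by 0.43 (SE 0.08, 1.35-fold, adjusted p 0.0015), and on return it fell by 0.55 (SE 0.08, 1.46-fold, adjusted p 6.0e-04). Cdkn1c was 3.95 to 4.12 with factors, 3.70 to 4.36 without and 3.62 to 3.80 on return. It lay at the 47.7 percentile of the mean signals of all probe sets, a low signal where a change is hard to measure. Returned cultures were below their start with no overlap, but the difference of -0.33 (SE 0.13) did not pass (adjusted p 0.16), while it passed in a fit of those 2 conditions alone (adjusted p 0.023).

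**Figure D5:**
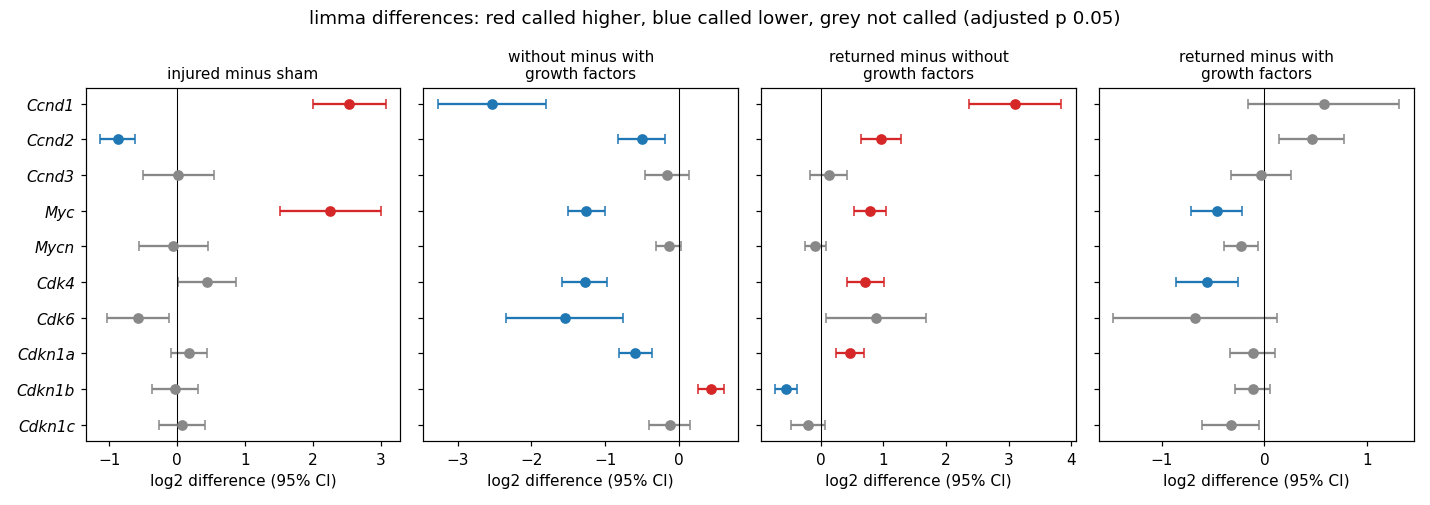
Log2 difference with its 95% confidence interval for each of the 10 genes in the 4 comparisons, from limma, in red where called higher, in blue where called lower and in grey where not called. Ccnd1 and Ccnd2 point opposite ways after injury and the same way in both neurosphere comparisons with arrays without factors.

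The rest of the pathway moved broadly in the neurospheres. Of all genes, 16.2% were called lower and 12.1% higher on loss, and 10.1% higher and 6.56% lower on return. Between returned and starting cultures 7.86% were called higher and 7.43% lower. Whether any list exceeded these shares was not tested. On loss of the factors 20 of 27 measured G1 to S genes fell and 5 rose (median -1.28, beside 0.005 for all genes). Among them the E2F family gene E2f8 was at -3.32 (adjusted p 4.9e-09) and the replication licensing gene Cdc6 at -2.87 (adjusted p 3.9e-08). All 17 measured proliferation markers fell (median -3.51), Mki67 by 4.93 (adjusted p 5.7e-09). On return 16 G1 to S genes rose and 2 fell (median 0.67), and all 17 proliferation markers rose (median 2.66), Mki67 by 3.83 (adjusted p 1.5e-07). Compared with their start, returned cultures had 1 G1 to S gene higher and 12 lower (2 and 13 with the culture as a block), among them Skp2, which targets p27 for destruction, at -1.40 (adjusted p 5.5e-04). They also had 14 of 17 proliferation markers lower and none higher, with a median of -0.80. With the culture as a block, 2086 of all 22180 genes were called higher and 2225 lower between returned and starting cultures.

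The MYC partner network was mixed. Of its 14 measured genes 4 rose and 4 fell on loss of the factors (median 0.04), with Mxd4, an antagonist of MYC for the partner MAX, at 0.67 (adjusted p 4.4e-04) and Mlx, a partner of related factors, at -0.65 (adjusted p 0.0027). On return 1 rose and 3 fell (2 and 4 with the culture as a block), among them the MYC antagonists Mxd1 at -0.56 (adjusted p 0.0060) and Mxi1 at -0.52 (adjusted p 0.0036). Of 19 measured p53 targets 3 rose and 4 fell on loss, beside 12.1% and 16.2% of all genes. On return 2 rose and 2 fell, beside 10.1% and 6.56% of all genes. With the culture as a block 5 rose and 5 fell on loss, and 5 rose and 2 fell on return. That block called 3089 of all 22180 genes higher and 4171 lower on loss, and 2879 higher and 1837 lower on return. The death receptor gene Fas rose by 3.42 on loss (adjusted p 3.3e-08) and fell by 1.62 on return (adjusted p 4.3e-05), whereas the kinase gene Plk2 fell by 2.35 (adjusted p 3.0e-05) and rose by 1.90 (adjusted p 4.1e-04).

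Across the 12 arrays of each table the members varied together in different ways, given here as a description since the arrays share conditions and cultures. Group means were not taken out, so that the differences between groups given above enter each correlation. In the central canal region the correlation of Ccnd1 with Ccnd2 was -0.861, and that of Ccnd2 with Myc was -0.894. In the neurospheres Ccnd1 and Ccnd2 correlated at 0.942, Myc and Cdk4 at 0.965, and Ccnd1 and Cdkn1a at 0.894. The genes most like Ccnd1 were Ctsb (0.982), Sec61a1 (0.981) and Fos (0.981) among 17096 genes in the central canal region, and Tbc1d1 (0.986), Arhgap18 (0.984) and Dusp6 (0.980) among 22179 genes in the neurospheres. Those most like Myc were Memo1 (0.982), Capg (0.971) and Jpt1 (0.970) in the first and Dnph1 (0.986), Gatm (0.985) and BC055324 (0.985) in the second. For Cdkn1c the closest were weaker, Slc1a5 (0.883), Actc1 (0.881) and Pnpla3 (0.866), and Olfr73 (0.905), Sdk1 (0.899) and Psg16 (0.896).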

How the data were processed

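The authors deposited log2 signals per probe set, made with RMA, which corrects background, normalizes arrays and summarises probes. The tool was Affymetrix Expression Console 1.2.1, by the submitters' processing notes. The 12 ependymal and 12 neurosphere arrays are of different types and form separate tables. Control probe sets marked as such (104 and 190) were left out, which left 45037 and 41155. Any controls not marked by their names in the neurosphere table were kept. Gene names are those of the array annotation, and probe sets naming several genes (551 and 1820) were not used to read a gene. The number of arrays limits the precision.

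Groups were compared with limma 3.58.1 (lmFit, eBayes) in R 4.3.3, two-sided, over all probe sets kept, with Benjamini-Hochberg adjustment and a threshold of 0.05. The study's methods name no block, so none was used in the main test. The 3 neurosphere conditions shared a fit. Python 3.11.15 with matplotlib 3.10.9 drew the figures. The labels give passage 1 and 3 days without factors, and the study's methods give 3 passages and 4 days.

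With group means taken out, arrays of the same number correlated at 0.312 to 0.391 (without and with factors), 0.275 to 0.359 (returned and without) and 0.160 to 0.306 (returned and with). The labels number the mouse of each culture, so these numbers pair the cultures. Sham and injured arrays of the same number (0.425 to 0.786) are different mice and share a set of arrays. The sets were found by clustering the quantiles of the signals, whose lower quartile was 4.38 to 4.41, 4.11 to 4.18 and 3.96 to 4.02.

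The members, gene lists and marker lists were chosen with earlier results of these data known. All 10 members are named, with up to 3 genes of each list that had the smallest p among those called (1 where none was), and the 3 genes most correlated with Ccnd1, Myc and Cdkn1c. Cdk1, Cenpf, Eda2r, Plk2, Mdm2, Trp53inp1, Mxd3, Mga and Mycbp (after injury), Gfap, Gja1, C1qb, P2ry12, Nes and Prom1 were named with their values known. So were Slc1a3, Olig1, Pdgfra, Acta2 and Cspg4. List genes absent from a table used here were not analysed here. Marker lists of oligodendrocytes (5 measured genes, 6.86 to 7.88 in sham and 6.55 to 8.18 in injured arrays), neurons (8.45 to 9.86 and 7.19 to 9.24), oligodendrocyte precursors (5.11 to 6.30 and 6.04 to 7.13), endothelium (5.21 to 5.88 and 5.00 to 6.33), fibroblasts (5.15 to 6.43 and 5.18 to 6.20), pericytes and smooth muscle (6.00 to 6.80 and 6.05 to 7.35) and erythroid cells (5.80 to 10.49 and 5.58 to 9.18) were also read. Promoters are those of RefSeq (GRCm38.p6), and genome positions of probe sets were not used here.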

Additional observations from a re-analysis of the deposited data

Results flagged for a closer look

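Of 50 groups of 4 or 6 arrays, 4 held an array that stood apart from the others by Dixon's criterion, which chance passes in about 1 in 20 groups. Cdkn1a in sham replicate 5 was 7.89, against 8.25 to 8.46 in the other sham mice. In cultures with growth factors, Ccnd3 was 6.08 in culture 4 and 6.34 to 6.38 in the others. Without growth factors, Cdk6 was 5.34 in culture 4, against 6.75 to 6.95, and Cdkn1c was 4.36 in culture 2, against 3.70 to 3.79. Without that culture the Cdkn1c difference on loss of the factors was -0.28 and passed the test (adjusted p 0.025), and between returned and starting cultures it passed as well (adjusted p 0.013). The Cdkn1c signal was low, where a change is hard to measure.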

How the results depend on the processing

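Over the alternatives other than leaving out an array, the direction and side of the threshold held for 392 values of a gene in a comparison, while 21 gained a call, 17 lost it and 13 changed sign. Leaving out each array in turn, 450 held, 4 gained, 12 lost a call and 14 changed sign. The cause was not tested. After injury 3 members were called, and 3 were called whichever array was left out. The replicate block and the set block each gave 5, quantile normalization 4 (with Cdk4, adjusted p 0.034), the study's thresholds (unadjusted p of at most 0.05 and at least 2-fold) 2 (without Ccnd2), array set 1 alone 6, array set 2 alone 2 (without Myc, adjusted p 0.065) and array set 3 alone 0, where only 2 mice a group remain (limma, 3 higher and 1 lower at an unadjusted p under 0.05), and the set block without the 4 arrays of highest muscle signal (sham replicates 3, 4 and 6 and injured replicate 6), chosen after seeing the data, gave 5. Without those arrays and with no block, 3 were called, Ccnd1 at 2.31, Ccnd2 at -0.87 and Myc at 2.66. The study's thresholds were applied here to the brightest probe set of a gene, which for Ccnd2 differed by -0.88. Other probe sets of Ccnd2 fell by more than 2-fold (-1.01, -1.09, -1.39 and -1.56), and another differed by -0.37. Calls over all genes were also more frequent with the set block (12% higher and 13.1% lower) than with no block (2.91% and 1.87%). Quantile normalization called 692 genes higher and 598 lower, beside 497 and 320 in the main test. For the other settings listed after injury, calls over all genes were not counted. In the neurosphere comparisons they were not counted by the study's thresholds, in fits of 2 conditions or with an array left out. The counts of members in those settings thus stand without a share of all genes. On loss of growth factors 7 members were called, 4 by the study's thresholds and 6 to 7 with an array left out. The call of Ccnd2 was lost with quantile normalization (adjusted p 0.097), in a fit of those 2 conditions (0.068) and without with-factor culture 2, 3 or 4 (0.067, 0.061 and 0.051) or culture 1 or 2 without factors (0.073 and 0.059). On return 6 were called, 1 by the study's thresholds and 6 with any array left out. Between returned and starting cultures 2 were called, 4 with the replicate block, 0 by the study's thresholds, 5 in a fit of those 2 conditions and 0 to 4 with an array left out: 0 without with-factor culture 1 or 3 or returned culture 4 (limma, 1 higher and 4 lower at an unadjusted p under 0.05 each time), 1 without returned culture 3, and 4 without culture 2 lacking factors.

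Changes of sign touched uncalled genes. After injury Cdkn1b was 0.0075 with quantile normalization, 0.015 with array weights, 0.025 as the mean of its probe sets, 0.041 and 0.19 in array sets 1 and 3 alone, 0.16 with the set block and without the arrays of highest muscle signal, and -0.087 to 0.068 with an array left out. Ccnd3 was -0.18 with array weights, -0.11 as the mean of its probe sets, -0.14 and -0.25 in array sets 2 and 3, and -0.11 to 0.15 with an array left out. Cdkn1c was -0.080 in array set 2, -0.010 with the set block and without the muscle arrays, and as low as -0.063 with an array left out (injured replicate 6). Mycn was 0.073 without the muscle arrays and -0.21 to 0.044 with an array left out. Ccnd3 was up to 0.095 between returned and starting cultures with an array left out (returned culture 2). Over all genes, calls after injury were 497 higher and 320 lower, and 405 and 393 with arrays centred on their medians. On return they were 2246 and 1456, and 2912 and 1028 when centred. The replicate block changed no other call of a member than those given with the results.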
